A study of Mus musculus with 6 samples.

Results

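The genes described here are 10 genes of cartilage and bone, other than collagens, measured in mouse cochlear explants with and without neomycin damage. They were taken by symbol from a count table of 24421 genes, by a rule that uses no measured value. Earlier results of these data were known when the genes were chosen. *Acan*, *Hapln1*, *Matn1*, *Matn3* and *Matn4* encode cartilage matrix proteins, *Sox9*, *Runx2* and *Sp7* encode transcription factors of chondrocytes and osteoblasts, and *Spp1* and *Alpl* encode a bone matrix protein and an enzyme of mineralization. Of these, 9 passed the filter on low counts and were tested, and *Matn3* did not. Cochleae came from wild-type mice at postnatal day 2 and were cultured for 12 h. The neomycin group then received neomycin, an aminoglycoside that kills hair cells (HCs), at 1 mM for 6 h, and both groups were kept for a further 5 days with EdU, a label of DNA synthesis, at 10 μM. The labels mark each sample as control or neomycin, and control is taken as explants without neomycin, although the growth text in the labels names neomycin for every sample. The control and neomycin groups had 3 samples each, and every sample was pooled from 6 to 8 cochleae, dissected free of the modiolus, the tectorial membrane and the early stria vascularis. How much of the bony wall of the cochlea stayed with the explants is not given in the sources used here, and neither is a batch.

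The otic capsule, the wall around the cochlea, forms as a cartilage model that is later replaced by bone. Chondrocytes build a matrix in which aggrecan, a large proteoglycan, is held on hyaluronan by link protein, while matrilins connect collagen fibrils with proteoglycans. SOX9 drives the chondrocyte program, and RUNX2 followed by SP7 drives the osteoblast program. Several of these genes are not limited to the skeleton: cochlear supporting cells (SCs) also express *Sox9*, and *Spp1* is made by many epithelial and immune cells. In whole explants, a change in the number of cells of a type and a change in RNA per cell cannot be told apart.

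Expression is given as CPM, the reads of a gene scaled to a common library size, with libraries scaled by the TMM method. A gene was called higher or lower at an adjusted p-value under 0.05 by edgeR's quasi-likelihood test, with a fold change over 1.5. Of the 15988 genes tested, 2.24% were called higher after neomycin and 6.6% lower. By the adjusted p-value alone, 12.9% were higher and 16.1% lower, and for 43.5% the CPM of the groups did not overlap. The labels do not say whether the pools came from separate litters or cultures, so the p-values measure the spread between these samples, which may be technical. Total counts ran from 50471116 to 66068108 per sample.

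The label of the genes was checked against markers of skeletal cells. *Col2a1*, the main collagen of cartilage, stood at 2810 ± 423 CPM in control (SD, n = 3) and 2930 ± 164 CPM after neomycin (SD, n = 3). Its RNA was abundant in both groups, but which cells made it was not measured. Other cartilage matrix genes spanned a wide range. *Comp* had at most 16 counts in a library, while *Epyc* had a mean of 5530 CPM in control and 6380 CPM after neomycin. *Sparc*, a matrix protein made by osteoblasts and by many other cells, had 263178 to 404575 counts. Among markers of mature bone and of hypertrophic cartilage, some were nearly absent and others were not. *Bglap*, which encodes osteocalcin, had at most 7 counts in a library, *Ibsp*, which encodes bone sialoprotein, at most 5, and *Col10a1*, the collagen of hypertrophic chondrocytes, at most 17. *Dmp1*, a gene of osteocytes, had 358 to 611 counts, and *Ifitm5*, which encodes a membrane protein of osteoblasts, had 33 to 64. The 10 genes are called cartilage and bone genes here, after their known roles.

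Among the 9 genes tested, *Matn1*, *Matn4* and *Sp7* were called higher after neomycin, which is 3 of 9 against 2.24% of all genes tested. No member was called lower by edgeR, DESeq2 or limma-voom. *Spp1* was the 1 gene with a lower level at an unadjusted p-value under 0.05, and it passed the adjusted threshold without reaching the fold threshold. The other 5 genes did not pass the adjusted p-value. The median log2 fold change over the 9 genes was 0.25, beside 0.0 over all genes tested. The CPM of the groups did not overlap for 5 of the 9 genes, and the share over all genes tested was 43.5%. Neomycin was the higher group for *Hapln1*, *Matn1*, *Matn4* and *Sp7* and the lower group for *Spp1*.

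**Figure D1:**
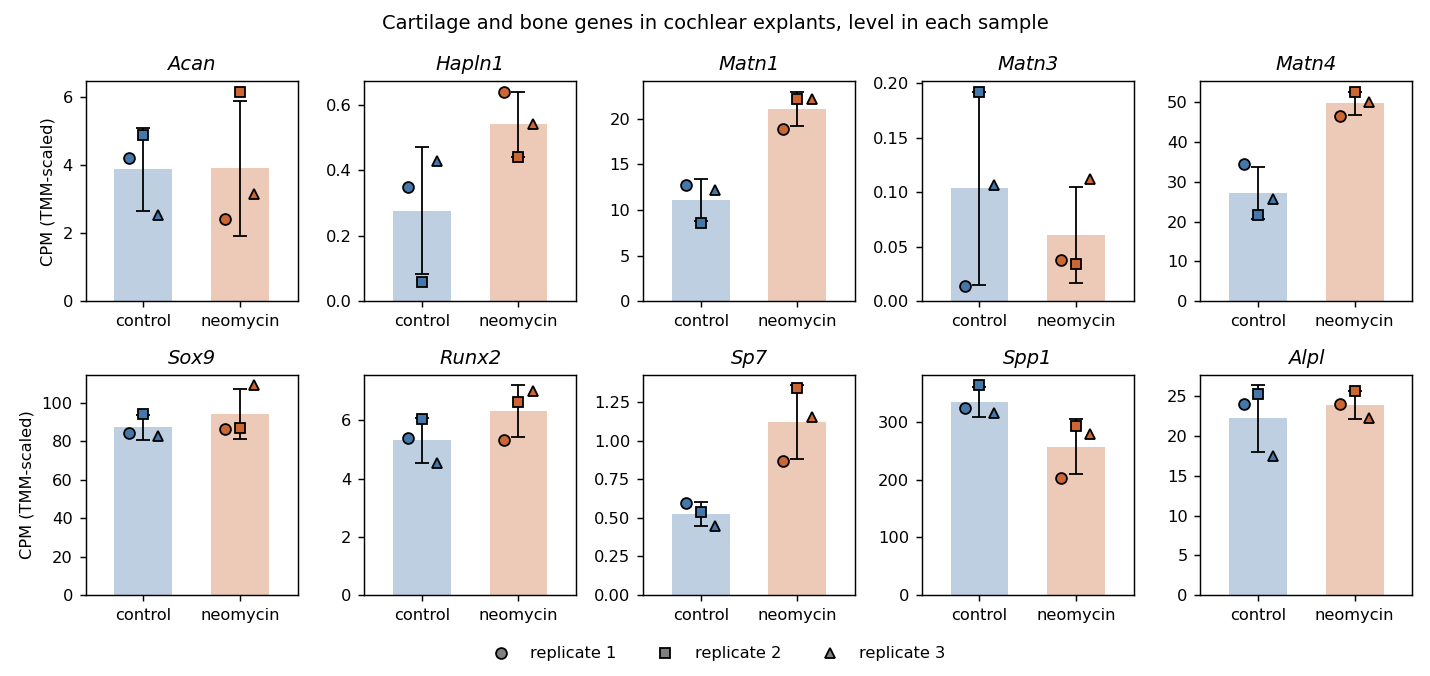
Level of each cartilage and bone gene in each sample. Each panel is 1 gene, the y axis is TMM-scaled CPM from 0, bars are group means with the SD over 3 samples, and points are samples, with marker shapes for the replicate number. All neomycin points of *Matn1*, *Matn4*, *Hapln1* and *Sp7* lie above the control points, and those of *Spp1* lie below.

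*Matn1* encodes matrilin-1, a matrix protein of hyaline cartilage, and lies on the plus strand at chr4:130944385-130955475 (mm10). In the order of the replicate numbers, its CPM was 12.7, 8.53 and 12.2 in control and 18.9, 22.1 and 22.2 after neomycin. Every neomycin sample was above every control sample. The mean rose from 11.1 ± 2.26 to 21.1 ± 1.87 CPM (SD, n = 3 each), a log2 fold change of 0.92 (SE 0.14, edgeR adjusted p = 0.000716).

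*Matn4* encodes matrilin-4, a more widely expressed member of the same family, and lies on the minus strand at chr2:164389393-164405160. Its CPM was 34.4, 21.6 and 25.8 in control and 46.6, 52.6 and 50.1 after neomycin, again without overlap. The mean rose from 27.3 ± 6.52 to 49.7 ± 2.99 CPM (SD, n = 3 each), a log2 fold change of 0.86 (SE 0.13, edgeR adjusted p = 0.000792). Exons of *Rbpjl* on the opposite strand overlap exons of *Matn4*, and since the strand setting of the counting is not given in the sources used here, reads of both cannot be told apart where they overlap. *Rbpjl* itself had only 32 to 94 counts, against 1126 to 3101 for *Matn4*.

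*Matn1* and *Matn4* kept a similar ratio to each other across samples. For each 100 reads of *Matn4* there were 36.9, 39.5 and 47.0 reads of *Matn1* in control and 40.6, 42.0 and 44.4 after neomycin, so the ratio overlapped between the groups while both genes rose. Control replicate 2 was the lowest control sample for both. Without it the log2 fold changes were 0.77 for *Matn1* and 0.73 for *Matn4*, and both remained called.

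The 250 bases upstream of a RefSeq transcript start are printed for both matrilins that rose and for *Spp1*, the 1 gene that was lower by adjusted p-value. They are given 5′ to 3′ on the strand of the gene in GRCm38.p6, the mm10 build, and stop at the base before the start. The windows are chr4:130944135-130944384 (+) for *Matn1*, chr2:164405161-164405410 (−) for the outer start of *Matn4*, and chr5:104434861-104435110 (+) for the first start of *Spp1*. Capitals mark any of the motifs searched on either strand: TGTGGT of RUNX factors, AACAAT and ACAAAG of SOX factors, the GC box GGGCGG to which SP factors bind, and TATAAA of the TATA box.
Matn1: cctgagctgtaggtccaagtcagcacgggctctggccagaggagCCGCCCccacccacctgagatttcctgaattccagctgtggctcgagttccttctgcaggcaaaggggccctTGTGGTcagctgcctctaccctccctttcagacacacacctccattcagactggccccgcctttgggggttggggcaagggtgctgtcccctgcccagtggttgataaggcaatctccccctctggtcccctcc
Matn4 outer: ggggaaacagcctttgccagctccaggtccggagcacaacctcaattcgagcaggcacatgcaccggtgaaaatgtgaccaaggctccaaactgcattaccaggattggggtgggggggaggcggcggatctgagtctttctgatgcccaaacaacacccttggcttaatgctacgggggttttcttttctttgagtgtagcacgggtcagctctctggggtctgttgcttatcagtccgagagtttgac
Spp1: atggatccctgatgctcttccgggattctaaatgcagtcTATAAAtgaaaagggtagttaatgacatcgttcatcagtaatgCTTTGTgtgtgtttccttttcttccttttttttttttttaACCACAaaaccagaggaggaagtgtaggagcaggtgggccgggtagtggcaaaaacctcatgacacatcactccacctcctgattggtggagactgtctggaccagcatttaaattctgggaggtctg
The *Matn1* window held a RUNX motif 134 bases and a GC box 206 bases before the start. The outer *Matn4* window held none of the motifs, and the window of its inner start, not printed, held a GC box 6 bases before that start. The *Spp1* window held TATAAA at 211 bases, ACAAAG on the reverse strand at 168 bases and a RUNX motif on the reverse strand at 128 bases before the start. The promoter table matched 8 of the 10 genes with 11 windows. It held no window of *Sox9* or of *Sp7*, which was also called higher, so these were not searched. A RUNX motif was in 4 of the 11, and in 14.0% of all 32851 windows of the table. ACAAAG was in 4 of the 11 and in 16.5% of all windows, but those 4 were all windows of *Alpl* or *Spp1*, which each had more than 1 window. AACAAT was in 0 of the 11 and in 9.42%, the GC box in 5 and 32.7%, and TATAAA in 2 and 12.4%. A match of letters is a description and not a bound site.

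*Acan* encodes aggrecan and lies on the plus strand at chr7:79053483-79115099. Its CPM was 4.22, 4.89 and 2.53 in control and 2.41, 6.17 and 3.16 after neomycin. The groups overlapped, and neomycin replicates 1 and 2 were the lowest and the highest of all 6 samples. The means were 3.88 ± 1.22 and 3.91 ± 1.99 CPM (SD, n = 3 each), with a log2 fold change of 0.02 (SE 0.32, edgeR adjusted p = 0.974). The sign followed single samples, since the log2 fold change was -0.47 without neomycin replicate 2 and -0.2 without control replicate 3. *Acan* also had the largest relative spread of the tested genes after neomycin, with a coefficient of variation of 50.8%.

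*Hapln1* encodes the link protein of cartilage and lies on the plus strand at chr13:89539796-89611652. It had 24, 3 and 24 counts in control and 34, 26 and 29 after neomycin. The 3 counts of control replicate 2 carry an exact Poisson 95% interval of 0.619 to 8.77 counts, which, like every such interval, covers counting error only. The means were 0.277 ± 0.195 and 0.54 ± 0.0998 CPM (SD, n = 3 each). All neomycin samples were higher, but the log2 fold change of 0.93 (SE 0.57) did not pass the test (edgeR adjusted p = 0.236), and without control replicate 2 it was 0.48.

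*Matn3*, which encodes a matrilin of growth plate cartilage and lies on the plus strand at chr12:8947929-8972028, had 1, 10 and 6 counts in control and 2, 2 and 6 after neomycin. At this depth a difference between the groups was not detectable.

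*Sox9*, on the plus strand at chr11:112782224-112787760, had 84.2, 94.3 and 82.7 CPM in control and 86.1, 86.9 and 109 CPM after neomycin. Neomycin replicate 3 stood above the other samples, which overlapped. The means were 87.1 ± 6.33 and 94.1 ± 13.2 CPM (SD, n = 3 each), with a log2 fold change of 0.11 (SE 0.10, edgeR adjusted p = 0.408). Beside it, *Sox2*, a transcription factor of SCs, had a log2 fold change of 0.21 (edgeR adjusted p = 0.064, and 0.041 without neomycin replicate 3). With 1 sample left out, the log2 fold change of *Sox2* ran from 0.13 to 0.28, with edgeR adjusted p-values of 0.041 to 0.245. The summed level of 10 SC markers was 1650 to 1680 CPM in control and 1700 to 1880 CPM after neomycin. *Gjb2* alone made up 554 CPM of the mean sum in control and 642 CPM after neomycin. The 10 SC markers moved in both directions, with 2 higher and 3 lower by the adjusted p-value and a median log2 fold change of 0.04. Their part in the level of *Sox9* was not tested.

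*Runx2*, on the minus strand at chr17:44495987-44814797, had 5.38, 6.06 and 4.52 CPM in control and 5.33, 6.64 and 7.0 CPM after neomycin. The groups overlapped, with means of 5.32 ± 0.771 and 6.32 ± 0.88 CPM (SD, n = 3 each) and a log2 fold change of 0.25 (SE 0.16, edgeR adjusted p = 0.271). Exons of the antisense gene *Runx2os1* overlap exons of *Runx2*, and reads of that stretch cannot be told apart without the strand.

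*Sp7* encodes osterix, which acts after RUNX2 in the osteoblast lineage, and lies on the minus strand at chr15:102356606-102367182. It had 41, 28 and 25 counts in control and 46, 79 and 62 after neomycin, or 0.594, 0.537 and 0.445 CPM against 0.866, 1.34 and 1.15 CPM. The groups did not overlap. The mean rose from 0.525 ± 0.0753 to 1.12 ± 0.238 CPM (SD, n = 3 each), a log2 fold change of 1.09 (SE 0.35, edgeR adjusted p = 0.0353). For each 100 reads of *Runx2* there were 11.1, 8.86 and 9.84 reads of *Sp7* in control and 16.3, 20.2 and 16.5 after neomycin, so *Sp7* was higher in relation to *Runx2* in every neomycin sample. The call of *Sp7* rested on few reads and was lost in 5 of the 6 fits that left out 1 sample, with adjusted p-values of 0.0653, 0.0953 and 0.079 without control replicates 1, 2 and 3 and of 0.138 and 0.0931 without neomycin replicates 2 and 3.

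*Spp1* encodes osteopontin, a phosphoprotein of mineralized matrix, and lies on the plus strand at chr5:104435118-104441050. Its CPM was 324, 363 and 315 in control and 202, 292 and 278 after neomycin, without overlap. The means were 334 ± 25.8 and 257 ± 48.3 CPM (SD, n = 3 each), a log2 fold change of -0.38 (SE 0.12, edgeR adjusted p = 0.0344), which is 1.3-fold and under the fold threshold. The lowest sample was neomycin replicate 1, and without it the log2 fold change was -0.23 (adjusted p = 0.0849). Without control replicate 2 it was -0.31 (adjusted p = 0.146). With a correction for a trend of expression on exon length, it was -0.62 (adjusted p = 0.00124), which is past both thresholds.

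*Alpl* encodes tissue-nonspecific alkaline phosphatase, which frees phosphate for mineral, and lies on the minus strand at chr4:137741733-137796384. Its CPM was 24.0, 25.3 and 17.5 in control and 24.0, 25.6 and 22.2 after neomycin, and the groups overlapped. The means were 22.2 ± 4.16 and 23.9 ± 1.74 CPM (SD, n = 3 each), with a log2 fold change of 0.11 (SE 0.13, edgeR adjusted p = 0.559).

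**Figure D2:**
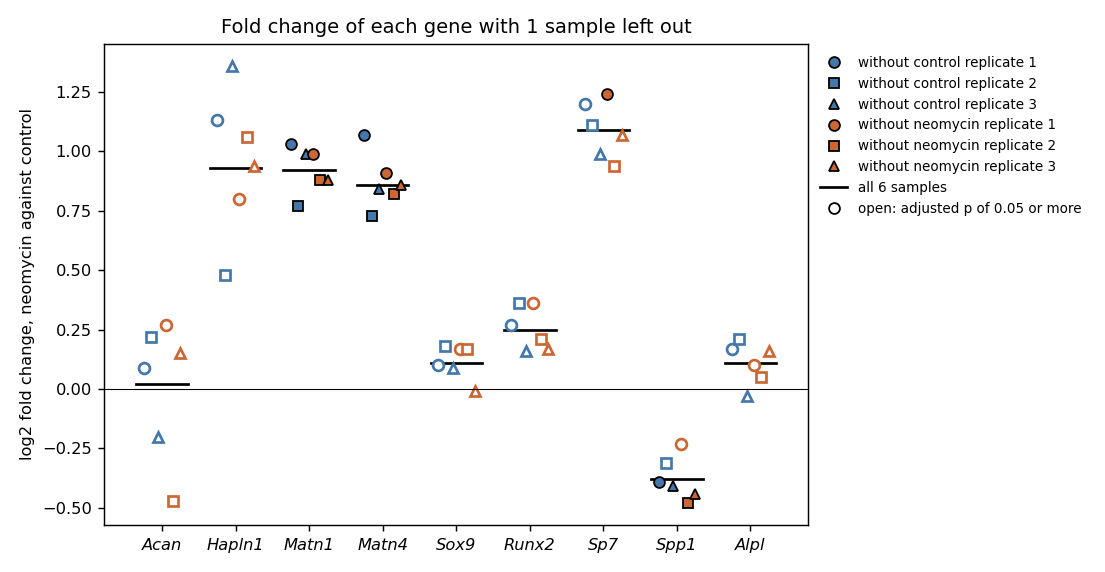
Log2 fold change of each tested gene, neomycin against control, with all 6 samples (line) and with 1 sample left out (points, coloured by the group and shaped by the replicate left out). Filled points have an adjusted p-value under 0.05: *Matn1* and *Matn4* stay filled in all 6 fits, *Sp7* only without neomycin replicate 1, and *Acan* lies on both sides of 0.

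The samples did not rank alike across the genes. Control replicate 2 was the lowest control sample for *Hapln1*, *Matn1* and *Matn4* and the highest for 6 others, namely *Acan*, *Matn3*, *Sox9*, *Runx2*, *Spp1* and *Alpl*. Control replicate 3 was the lowest for 6 genes. Neomycin replicate 1 was the lowest neomycin sample for 7 of the 10 genes, among them *Spp1*, *Sp7* and both matrilins that rose.

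Levels between genes were compared as CPM per kb of annotated exon. In control the order was *Spp1* at 203 ± 15.6, *Sox9* at 21.1 ± 1.53, *Matn1* at 5.56 ± 1.13, *Alpl* at 5.51 ± 1.03, *Matn4* at 5.27 ± 1.26, *Runx2* at 0.602 ± 0.0872, *Acan* at 0.519 ± 0.163, *Sp7* at 0.155 ± 0.0222, *Hapln1* at 0.047 ± 0.033 and *Matn3* at 0.0346 ± 0.0294 CPM per kb (SD, n = 3 each). The samples overlapped between *Matn1* and *Alpl*, *Alpl* and *Matn4*, *Runx2* and *Acan*, and *Hapln1* and *Matn3*, so these neighbours did not differ beyond their spread. After neomycin both matrilins, at 10.5 ± 0.937 for *Matn1* and 9.61 ± 0.578 for *Matn4*, stood above *Alpl* at 5.93 ± 0.43 CPM per kb (SD, n = 3 each). The order of these genes turned with the length used. Per kb of the longest transcript, *Alpl* stood at 8.82 in control, above *Matn4* at 6.63 and *Matn1* at 5.56, and after neomycin its samples, at 8.79 to 10.2, overlapped those of *Matn1* at 9.45 to 11.1 and lay below those of *Matn4* at 11.3 to 12.8 CPM per kb. *Acan* and *Hapln1*, whose products are partners in cartilage matrix, were below *Matn1* and *Matn4* in every sample of both groups.

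The closest relatives of aggrecan, link protein and the matrilins were read beside them. *Vcan* encodes versican, a hyaluronan-binding proteoglycan of embryonic and soft tissue matrix, and fell from 23.9 ± 2.77 to 12.1 ± 0.715 CPM (SD, n = 3 each), a log2 fold change of -0.99 (SE 0.11, edgeR adjusted p = 5.78e-05). With the exon length correction its log2 fold change was -0.74, still called lower. For each 100 reads of *Vcan* there were 11.5 to 18.6 reads of *Acan* in control and 21.1, 48.1 and 26.4 after neomycin. *Matn2*, the matrilin of many non-skeletal tissues, was 11.4 ± 1.68 and 16.3 ± 0.56 CPM (SD, n = 3 each) with a log2 fold change of 0.51 (SE 0.12, edgeR adjusted p = 0.00713), under the fold threshold. It was called higher without control replicate 1 (0.64) and with the exon length correction (0.6). *Bcan* and *Ncan*, the aggrecan relatives of brain, had log2 fold changes of 0.61 (edgeR adjusted p = 0.0787) and -0.59 (edgeR adjusted p = 0.327). *Hapln4* had -0.72 (edgeR adjusted p = 0.402). *Hapln2* and *Hapln3*, with at most 5 and 4 counts in a library, were not tested. Of the 5 relatives tested, 1 was called lower. None was called higher by edgeR, DESeq2 or limma-voom, and 1, *Bcan*, was past the fold threshold at an unadjusted p-value under 0.05.

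**Figure D3:**
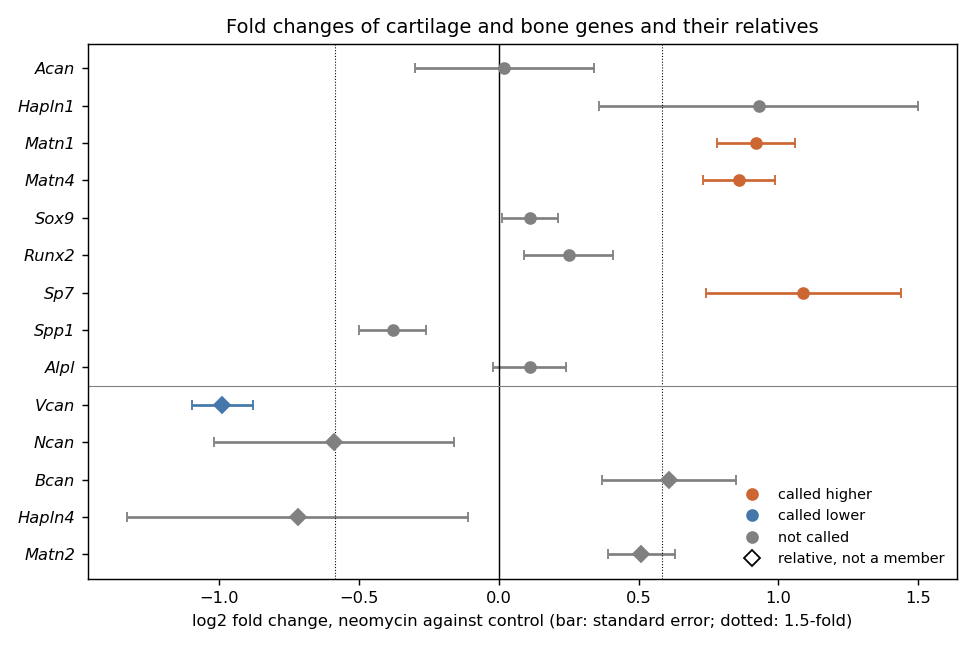
Log2 fold change of neomycin against control with its standard error for the 9 tested cartilage and bone genes (circles) and 5 relatives (diamonds). Dotted lines mark 1.5-fold. *Matn1*, *Matn4* and *Sp7* lie to the right of the dotted line as called genes, *Vcan* to the left, and the wide bars of *Hapln1* and *Hapln4* go with few reads.

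Other genes of cartilage moved in both directions. Of 14 other cartilage matrix genes tested, 4 were called higher and 1 lower, with a median log2 fold change of 0.15. With the exon length correction the calls were 3 higher and 1 lower, and the median was -0.06. *Ucma*, a secreted protein of upper zone chondrocytes, rose from 35.7 ± 3.27 to 78.5 ± 3.48 CPM (SD, n = 3 each), a log2 fold change of 1.14 (SE 0.08, edgeR adjusted p = 2.11e-06). *Cilp2*, a protein of the cartilage intermediate layer family, rose by 1.16 (edgeR adjusted p = 0.00513) and *Scrg1*, a gene of differentiating chondrocytes, by 1.0 (edgeR adjusted p = 0.000204) on the log2 scale. These calls held in every alternative fit, but with all 6 samples the log2 fold change fell as low as 0.79 for *Ucma* and 0.6 for *Scrg1*. The fourth, *Mia*, encodes a secreted protein of chondrocytes, was chosen after its values were seen, and had a log2 fold change of 0.74 (edgeR adjusted p = 0.00169), which was 0.42 and no longer called with the exon length correction. *Fmod*, which encodes fibromodulin, a small proteoglycan that binds collagen, fell from 15.6 ± 5.97 to 6.89 ± 1.27 CPM (SD, n = 3 each), with a log2 fold change of -1.18 (edgeR adjusted p = 0.00342).

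Of 7 cartilage collagens tested, none was called in either direction by edgeR, DESeq2 or limma-voom. By the adjusted p-value alone 4 were higher, and at an unadjusted p-value under 0.05 there were 4 higher and 1 lower, all under 1.5-fold. Their median log2 fold change was 0.32, and *Col2a1* had 0.06 (SE 0.11, edgeR adjusted p = 0.731).

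Of 14 regulators of chondrocytes tested, 3 were called lower and none higher by edgeR, DESeq2 or limma-voom, with none higher at an unadjusted p-value under 0.05, and the median log2 fold change was -0.29. *Arid5b*, a partner of SOX9 in chondrocytes, fell from 12.5 ± 2.83 to 4.4 ± 0.404 CPM (SD, n = 3 each), a log2 fold change of -1.51 (SE 0.17, edgeR adjusted p = 8.99e-05). *Hdac4*, a repressor of chondrocyte hypertrophy, fell by 0.91 (edgeR adjusted p = 0.00455) and *Fgfr3*, an FGF receptor of growth plate cartilage and also of cochlear SCs, fell by 0.66 (edgeR adjusted p = 0.000129) on the log2 scale. With the correction for exon length, 2 regulators were called lower, and the log2 fold change of *Fgfr3*, at -0.55, was under the fold threshold.

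The chains of aggrecan need sulfate, and 3 of 19 enzymes and transporters of chondroitin sulfate and sulfation were called lower, with a median log2 fold change of -0.05. *Slc26a2*, the sulfate transporter of chondrocytes, fell from 5.51 ± 0.597 to 2.2 ± 0.132 CPM (SD, n = 3 each), a log2 fold change of -1.32 (SE 0.17, edgeR adjusted p = 0.000282). *Impad1*, a phosphatase of the sulfation pathway, fell by 0.65 (edgeR adjusted p = 0.000366) and *Chst3*, a chondroitin sulfotransferase, by 0.62 (edgeR adjusted p = 0.0119) on the log2 scale. The call of *Chst3* was lost without control replicate 1 (-0.46, adjusted p = 0.0574) and without neomycin replicate 3 (-0.56), and that of *Impad1* without control replicate 2 (-0.57). With the exon length correction neither was called (-0.53 and -0.55), and 1 gene of the list remained. None was called higher by edgeR, DESeq2 or limma-voom, or at an unadjusted p-value under 0.05 with a fold change over 1.5. By the adjusted p-value alone, 3 of the 19 were higher and 4 lower.

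Of 17 other osteoblast and mineral genes tested, 1 was called higher and 1 lower, with a median log2 fold change of -0.11, which turned to 0.02 with the exon length correction. *Tnfrsf11b* encodes osteoprotegerin, the decoy receptor that limits osteoclast formation, and fell from 250 ± 47.8 to 149 ± 8.32 CPM (SD, n = 3 each), a log2 fold change of -0.74 (SE 0.12, edgeR adjusted p = 0.000834). *Phex*, an endopeptidase of osteoblasts and osteocytes, rose from 1.44 ± 0.589 to 2.67 ± 0.287 CPM (SD, n = 3 each), with a log2 fold change of 0.88 (SE 0.29, edgeR adjusted p = 0.0377). That call was lost without control replicates 2 and 3 (adjusted p = 0.135 and 0.0908) and without neomycin replicates 2 and 3 (adjusted p = 0.123 and 0.087), and also with libraries scaled by their totals alone (adjusted p = 0.0621).

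**Figure D4:**
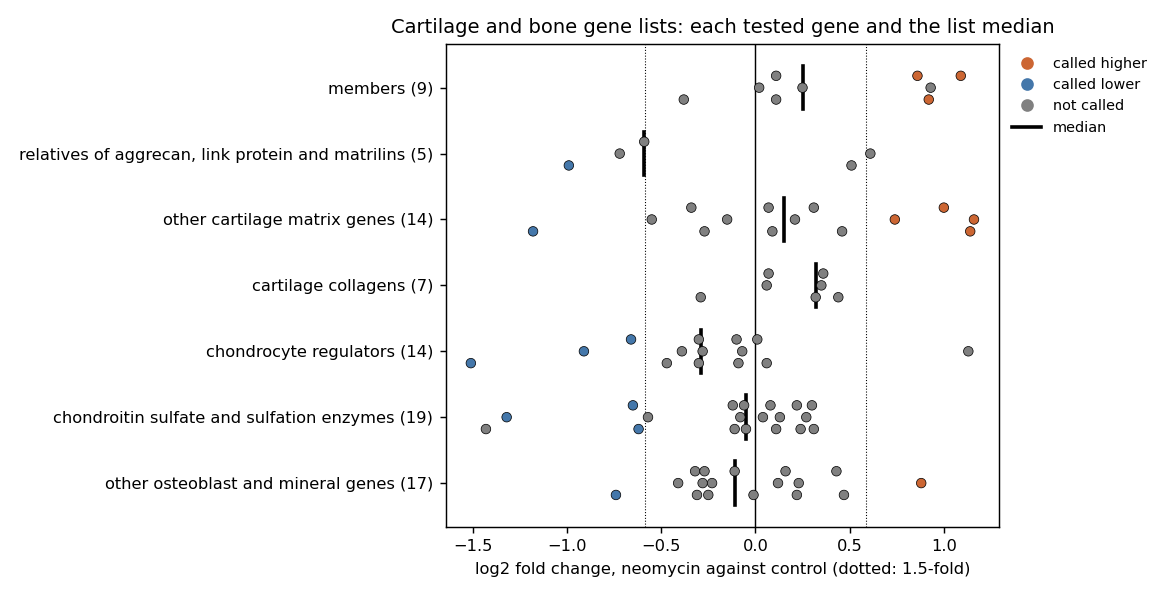
Log2 fold change of neomycin against control for every tested gene of the cartilage and bone lists, with the number tested in parentheses and a bar at the median of each list. The median is 0.25 for the cartilage and bone genes described here, 0.32 for cartilage collagens and -0.29 for chondrocyte regulators, and called genes lie on both sides of 0.

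Markers of other cells moved as well, and their part in the levels above was not tested. Of 12 macrophage markers 6 were called higher, *Tyrobp* by 0.93, *Trem2* by 0.83 and *Gpnmb* by 0.69 on the log2 scale, and their summed level was 154 to 190 CPM in control and 233 to 284 CPM after neomycin. *Csf1r*, a growth factor receptor of macrophages, had a log2 fold change of -0.05 (edgeR adjusted p = 0.799), and with the exon length correction 2 of the 12 markers were called, without *Tyrobp* (0.53). Of 7 osteoclast markers tested, *Ctsk*, the matrix protease of osteoclasts, was called higher with a log2 fold change of 0.62 and *Nfatc1*, their transcription factor, lower with -0.61, and neither was called with the exon length correction (0.37 and -0.49). The call of *Ctsk* was also lost without control replicate 2 (0.57) and without neomycin replicate 2 (0.53), and that of *Nfatc1* without control replicate 1 (-0.55) and without neomycin replicate 3 (-0.51). *Acp5*, the acid phosphatase of osteoclasts, had 0.20 (edgeR adjusted p = 0.499), the list summed to 47.0 to 50.5 CPM in control and 50.9 to 58.5 CPM after neomycin, and *Calcr*, *Dcstamp* and *Ocstamp* had 3 counts or fewer in every library.

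Of 15 mesenchyme and fibrocyte markers 3 were called higher, *Otos* by 2.69, *Car3* by 1.41 and *Dcn* by 0.64 on the log2 scale, and *Prrx1* was called lower with -0.59, at the edge of the fold threshold. The call of *Prrx1* was lost in 10 of 16 alternative fits, among them those without control replicates 2 and 3 (-0.5 and -0.55), without neomycin replicate 1 (-0.52) and with the exon length correction (-0.39), and that of *Dcn* without control replicate 2 (0.56). The summed level of the 15 markers was 5490 to 6100 CPM in control and 6840 to 6910 CPM after neomycin. Within it, the mean of *Dcn* rose from 840 to 1310 CPM and that of *Otos* from 85.2 to 550 CPM. The list as a whole did not rise, with a median log2 fold change of -0.05 and 4 genes higher and 3 lower by the adjusted p-value. Of 12 HC markers 10 were called lower, with *Slc26a5* at -3.99, *Ocm* at -3.41, *Otof* at -2.34 and *Myo7a* at -1.14, and the sum was 776 to 887 CPM in control and 275 to 332 CPM after neomycin. Of 8 endothelial markers 6 were called lower, with *Cldn5* at -3.4, *Pecam1* at -2.71 and *Esam* at -2.15. Their sum was 282 to 315 CPM in control and 267 to 318 CPM after neomycin, and most of it was 1 gene, *Emcn*. Its mean was 252 CPM in control and 273 CPM after neomycin (log2 fold change 0.12), so the sum does not show the fall of the others. Of 10 SC markers 1 was called, *Prox1*, with a log2 fold change of -1.46.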

How the data were processed

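RNA from 6 samples of cochlear explants was sequenced with an Illumina mRNA kit. Per the study's methods, raw reads were first processed with CASAVA 1.8, then trimmed with Trimmomatic 0.23, aligned to mm10 with HISAT2 and counted with HTSeq. The authors deposited raw counts per gene symbol, without normalization; the strand setting and the handling of multiply mapped reads are not given in the sources used here. The table holds 24421 symbols, of which 4596 had no counts. All columns were mapped to samples by name.

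Counts were scaled by TMM, filtered with filterByExpr and tested with edgeR 4.0.16 (quasi-likelihood, Benjamini-Hochberg over 15988 genes, R 4.3.3) for neomycin against control, at the study's thresholds (adjusted p under 0.05, fold over 1.5). The code was tested on simulated data. Alternatives were DESeq2 1.42.0, limma-voom (limma 3.58.1), other scalings, filters and thresholds, a replicate block, each sample left out, and a lowess correction (span 0.3) for exon length, available for 99.2% of tested genes. Exon lengths came from the GENCODE annotation of mm10, matched for 23376 symbols directly and 670 through an older symbol, and promoters from RefSeq.

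The genes and lists were chosen with earlier results of these data known. Named are all 10 genes, the relatives of aggrecan, link protein and matrilins, up to 3 called genes per direction of each other list, and preset markers; others were chosen after their values were seen. No list was tested as a set. Plots used matplotlib 3.10.9 (Python 3.11.15).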

Additional observations from a re-analysis of the deposited data

How the results depend on the processing

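*Matn1* and *Matn4* were called higher in every fit that kept the 1.5-fold threshold, with log2 fold changes of 0.73 to 1.03 and 0.73 to 1.07. With a fold threshold of 2, 1 of the 10 genes was called higher, and with 1 sample left out 2 to 3 were. *Spp1* made 1 gene called lower with the exon length correction, alone or with the replicate block, and with no fold threshold; with any 1 sample left out there were 0. Over all genes, those called higher numbered 233 with library totals alone, with the exon length correction and with that correction plus the replicate block, 237 without control replicate 2, 2058 with no fold threshold and 121 with a fold over 2, and 237 to 513 with 1 sample left out; those called lower numbered 2571, 565 and 800 to 1159 under the latter settings.

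The sign of *Acan* turned to -0.03 with limma-voom, -0.06 with library totals alone, -0.04 with the replicate block, -0.2 without control replicate 3 and -0.47 without neomycin replicate 2 (-0.47 to 0.27 with 1 sample left out). It also turned for *Sox9* (-0.01 without neomycin replicate 3, -0.01 to 0.18), *Alpl* (-0.03 without control replicate 3, -0.03 to 0.21), *Col2a1* (-0.01 with library totals alone) and *Csf1r* (0.02 with the exon length correction, with and without the block). None of the values with a turned sign passed the test. *Sox2* passed the adjusted p-value, under 1.5-fold, with upper quartile scaling (0.0441), the replicate block (0.0258) and without neomycin replicate 3 (0.041). It did not pass in the other 13 of 16 alternative fits. Among the alternatives with all 6 samples, its log2 fold change fell as low as 0.03 and its edgeR adjusted p rose as high as 0.801. *Col2a1* passed, also under 1.5-fold, with the block plus the exon length correction (0.0234). *Dcn* and *Ctsk* were not called with library totals alone (0.57 and 0.55). The causes were not tested.

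List medians moved. For relatives the median was -0.59 in the main edgeR fit (-0.83 to -0.2 with 1 sample left out). With a mean of at least 1 CPM required it was 0.51, because *Ncan* and *Hapln4* then gave no value. For other cartilage matrix genes the medians were 0.21 with DESeq2, 0.08 with library totals alone and -0.06 with the exon length correction (0.11 to 0.22 with 1 sample left out), and for collagens 0.19 with no filter. Regulators stood at -0.19 with the length correction (-0.3 to -0.18), sulfation enzymes at -0.12 with library totals and 0.0 with the length correction (-0.04 to 0.0). Osteoblast genes stood at 0.15 with DESeq2, 0.14 with no filter, 0.02 with the length correction and 0.03 with the block added (-0.16 to 0.08). The DESeq2 fit and the fit with no filter covered 19825 genes, against 15988 in the main edgeR fit. Their list medians therefore took in genes of low counts that the main fit left out, such as *Comp*, *Col10a1* and *Bglap*. Osteoclast markers, at 0.2 in the main edgeR fit, spanned 0.1 to 0.35 with 1 sample left out. Macrophage markers, at 0.59 in the main edgeR fit, stood at 0.38 with the length correction and 0.37 with the block added. SC markers stood at -0.03 with library totals and -0.01 with the length correction (0.03 to 0.08).

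Whether the replicate numbers pair the samples could not be decided, because deviations from means of 3 samples leave too few pairs to compare. Deviations of same-numbered samples correlated at 0.165, 0.026 and 0.095, and those of differently numbered samples at -0.129 to 0.032. Control replicate 2 correlated with neomycin replicate 3 (0.032) about as with neomycin replicate 2 (0.026). With the replicate block 3 of the 10 genes were called higher and 0 lower; with the exon length correction added the call of *Sp7* was lost (adjusted p = 0.0608). With a mean of at least 1 CPM required, *Sp7* and *Hapln1* gave no value. With the longest transcript in place of all exons, levels per kb were higher for *Matn4* (6.63 in control and 12.1 after neomycin), *Runx2* (0.823 and 0.979), *Spp1* (222 and 171) and *Alpl* (8.82 and 9.49), and the order of *Alpl* and the matrilins turned. Over 142 alternative fits of the tested genes, the call by both thresholds was the same in 134 and changed in 8, of which 6 were for *Sp7* and 2 for *Spp1*.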
